A study of Mus musculus with 40 samples.

Results

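Olfactory receptor genes, which encode the odorant receptors of sensory neurons of the nose, stand in large tandem clusters, and 4 stretches of such clusters were examined for dimethylation of lysine 9 on histone H3 (H3K9me2) in mouse oocytes. The members were the 10 kb windows of the deposited H3K9me2 table (GRCm38) that start inside chromosome 2 from 85.1 to 90.4 Mb, chromosome 7 from 102.4 to 105 Mb and from 106.2 to 108.8 Mb, or chromosome 9 from 37.6 to 40.2 Mb. These rules gave 1306 of 272158 windows: 530 on chromosome 2, 260 in the first chromosome 7 interval, 256 in the second and 260 on chromosome 9. They were defined by position and not by a cut on any measured value, but earlier results of these data were known when they were chosen. RefSeq annotation of GRCm38.p6 places 631 of its 1428 olfactory receptor genes (44.2%) in the 4 intervals, 292, 138, 74 and 127 in the same order, of which 142 are pseudogenes. The intervals also hold 51 other coding genes, 29 of them in the first chromosome 7 interval, where the beta-globin cluster and the Usp17l and Trim genes lie among the receptors. RNA loci overlapping the intervals were 129 of 38540.

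H3K9me2 is a mark of silent chromatin placed by the methyltransferases G9A (gene Ehmt2) and GLP (gene Ehmt1), which act as a complex. In the sensory neurons each cell transcribes a single receptor allele, and the silent receptor clusters carry H3K9 and H4K20 methylation there. In other cell types the clusters are poor in CpG, late replicating and largely untranscribed.

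The samples were pools of 100 to 200 germinal vesicle oocytes from mice of 22 to 25 days, of 3 genotypes: Control, G9a cKO (conditional deletion of G9a) and G9a-Glp cDKO (conditional deletion of G9a and Glp). The driver of the deletion is not given in the sources used here, and nothing in the labels says whether libraries of a genotype came from separate animals, so p-values measure only the spread between these libraries. H3K9me2 was read in 2 libraries per genotype by native chromatin immunoprecipitation from few cells, with 250 ng of antibody, and both mutants were set against the same 2 control libraries. RNA was read in 3 G9a cKO libraries against 3 controls that share their GKAO title prefix, and in 2 cDKO libraries against 3 controls with the GKAQ prefix. Values are RPM, each library's reads scaled to a common total, so they show how the mark is spread along the genome and cannot show a change of its total amount.

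The depth of the H3K9me2 libraries differed with genotype. Controls had 7048784 and 19128881 reads, the G9a cKO libraries 1857144 and 1109191, and the cDKO libraries 1723142 and 1881848. RNA libraries held 1458868 to 2399680 reads. A 100 kb stretch of the intervals therefore held a median of 252.5 and 719 reads in controls but 40 to 70 in the mutants. In the RNA libraries Ehmt2 stood at 8.23, 6.81 and 5.27 RPM in GKAO controls against 2.09, 6.01 and 0.942 RPM in G9a cKO (limma log2 fold change -1.55, adjusted p = 0.097), and at 5.03, 12.5 and 7.89 RPM in GKAQ controls against 2.85 and 2.96 RPM in cDKO (-1.45, adjusted p = 0.121). G9a cKO RNA replicate 2 thus lay within the range of its controls; which exons are deleted is not given in the sources used here, and reads over the whole gene need not show it. Ehmt1 fell in cDKO, from 90.5, 68.3 and 85.3 to 17.7 and 21.3 RPM (-2.06, adjusted p = 1.09e-21 by limma). Oocyte markers summed to 19462 to 24773 RPM in the 11 libraries, with 13 of 14 matched genes at 1 RPM or more. The 3 matched blood markers had no read, and the 5 matched olfactory neuron markers summed to 32.9 to 50.7 RPM. Granulosa cell markers were lower in G9a cKO (136 to 162 RPM) than in its controls (184 to 196 RPM) and overlapped between cDKO (117 to 143 RPM) and its controls (132 to 157 RPM). Most of that sum came from Nr5a2 and Cyp19a1, and of the 11 matched markers 2 were called higher in cDKO and 0 in G9a cKO. Inha, an inhibin subunit, went from 1.26, 4.17 and 0.986 RPM in GKAQ controls to 6.83 and 10.1 in cDKO (limma log2 fold change 2.26, adjusted p = 0.00472). Fshr, the follicle-stimulating hormone receptor, went from 0.629, 2.50 and 2.46 to 9.11 and 5.34 RPM (2.15, adjusted p = 0.0300), and in G9a cKO its log2 fold change was 1.85 without a call (adjusted p = 0.0971). The part of these markers in the RNA results was not tested, and in such pools fewer cells of a type and less RNA per cell cannot be told apart.

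Sequences of the clusters were examined first, since receptor promoters differ from most others in composition. Of 32851 RefSeq promoters (250 bases before to 50 after a start), the median held 7 CG dinucleotides and 52.7% G and C, while the 417 receptor promoters in the intervals held a median of 1 CG and 34.0% G and C. At most 1 CG occurred in 294 of these 417 (70.5%), in 340 of 531 receptor promoters elsewhere (64.0%) and in 14.1% of all promoters. The promoter of Olfr251 (chr9:38377633-38377932, plus strand) lies in the window with one of the greatest gains of H3K9me2 and holds no CG. That of Olfr67 (chr7:103791781-103792080, minus strand) lies in the 100 kb bin with the greatest loss, and its 2 CG are in capitals. The Usp17l promoters are shown because RNA of that gene family rose in cDKO, with capitals marking the longest run, 29 bases, that is identical in the promoters of Usp17la, Usp17lb, Usp17lc and Usp17ld. They lie at chr7:103416446-103416745 (Usp17lc, plus strand), chr7:103252456-103252755 (Usp17ld, minus strand) and chr7:104842534-104842833 (Usp17lb, minus strand).
Olfr251: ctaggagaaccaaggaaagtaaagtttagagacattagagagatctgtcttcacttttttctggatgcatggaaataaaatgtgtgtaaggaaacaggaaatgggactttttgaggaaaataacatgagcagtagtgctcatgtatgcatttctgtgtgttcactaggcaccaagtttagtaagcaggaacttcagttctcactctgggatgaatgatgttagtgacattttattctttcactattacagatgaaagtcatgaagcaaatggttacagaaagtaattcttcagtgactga
Olfr67: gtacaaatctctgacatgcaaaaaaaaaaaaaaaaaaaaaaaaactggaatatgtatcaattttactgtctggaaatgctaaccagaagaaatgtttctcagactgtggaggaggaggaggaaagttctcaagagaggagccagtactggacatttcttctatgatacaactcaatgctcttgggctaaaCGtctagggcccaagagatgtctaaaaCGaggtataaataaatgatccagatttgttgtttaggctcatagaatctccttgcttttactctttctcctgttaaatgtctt
Usp17lc: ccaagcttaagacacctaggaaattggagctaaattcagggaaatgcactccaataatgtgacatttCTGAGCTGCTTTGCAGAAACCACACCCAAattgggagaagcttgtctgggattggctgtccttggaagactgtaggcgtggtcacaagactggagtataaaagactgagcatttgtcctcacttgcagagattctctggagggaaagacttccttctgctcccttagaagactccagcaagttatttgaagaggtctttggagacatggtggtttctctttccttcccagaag
Usp17ld: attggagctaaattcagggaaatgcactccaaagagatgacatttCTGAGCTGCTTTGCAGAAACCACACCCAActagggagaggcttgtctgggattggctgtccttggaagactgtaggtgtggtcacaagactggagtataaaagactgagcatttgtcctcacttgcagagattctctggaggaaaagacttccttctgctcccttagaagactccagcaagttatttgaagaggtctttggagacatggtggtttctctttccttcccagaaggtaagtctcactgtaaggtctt
Usp17lb: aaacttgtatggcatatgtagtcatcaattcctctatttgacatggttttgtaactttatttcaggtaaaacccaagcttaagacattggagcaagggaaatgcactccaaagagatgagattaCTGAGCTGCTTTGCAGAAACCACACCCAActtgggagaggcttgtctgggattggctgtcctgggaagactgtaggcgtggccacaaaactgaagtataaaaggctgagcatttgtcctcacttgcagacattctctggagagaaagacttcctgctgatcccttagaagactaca
The Usp17l promoters were 91.7% to 96.8% identical over their aligned bases, and the 29-base run, searched on both strands, occurred in 4 of 32851 promoters (0.0122%), the 4 it was taken from. It ended 155 bases before the start of Usp17lc, 177 before that of Usp17ld and 98 before that of Usp17lb.

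In controls the clusters carried H3K9me2 very evenly, and close to the mean over all windows of the table. That mean takes in windows without any read, of which the clusters had 9. Over the 255057 windows with a read in any library, the controls held 3.96 and 3.98 RPM per window, above the clusters. The mean over the 1306 windows was 3.62 and 3.75 RPM per window in the 2 control libraries, against 3.71 and 3.73 RPM over the whole table, 4.05 and 4.08 RPM in the 720 windows within 1 Mb on either side, and 3.12 and 3.15 RPM in the 25319 windows over 500 kb from any coding gene. Pooled over the intervals, the clusters were thus below their flanks and above gene deserts, which were not filtered for reads, in both libraries. By interval, chromosome 2 and chromosome 9 lay below their own flanks (4.13 and 4.14, and 4.46 and 4.41 RPM). The second chromosome 7 interval (3.76 and 3.94 RPM) lay above its flanks (3.53 and 3.70 RPM). The first (3.82 and 3.98 RPM) lay near its flanks (3.82 and 3.87 RPM). Few of their windows were among the richest, since 57 of 1306 (4.36%) exceeded 5.28 RPM, the level that marks the top 10% of windows in controls. Across the 128 member bins of 100 kb with a mean of at least 20 RPM, the spread beyond counting error was 11.9% and 13.6% of the mean in controls, against 15.7% and 16.8% over 25080 bins of the genome.

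Among the windows with reads in every library, the highest control values stood at genes other than receptors. A window at Pramel7, a gene of the PRAME-like family (chr2:87480001-87490000), held 7.24 and 6.38 RPM, one at Lrrc55 (chr2:85190001-85200000), which encodes an auxiliary subunit of BK potassium channels, 6.38 and 6.85 RPM, and one at Panx3, a pannexin channel gene (chr9:37660001-37670000), 7.24 and 5.91 RPM. These lie above 99.4% of the windows of the table. The lowest, at chr7:103280001-103290000, held 0.567 and 0.836 RPM with no annotated gene.

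In G9a cKO oocytes the 4 intervals moved in different directions. Mean H3K9me2 of the first chromosome 7 interval was 3.82 and 3.98 RPM per window in controls, 3.27 and 3.36 in G9a cKO, with 3.40 and 3.27 in cDKO. Both mutants lay below both controls (log2 ratio -0.24 ± 0.05 in G9a cKO and -0.23 ± 0.06 in cDKO; SD, n = 2 libraries per genotype). The second chromosome 7 interval held 3.76 and 3.94 RPM in controls, 4.53 and 4.20 in G9a cKO, with 3.89 and 3.87 in cDKO (0.18 ± 0.09 and 0.01 ± 0.05). The G9a cKO libraries were above both controls there and the cDKO libraries lay within the range of the controls. The chromosome 9 interval held 3.54 and 3.73 RPM in controls, 4.27 and 4.09 in G9a cKO, with 3.91 and 3.82 in cDKO (0.20 ± 0.07 and 0.09 ± 0.06), both mutants above both controls. On chromosome 2 the libraries held 3.49 and 3.54, 3.65 and 3.63, and 3.44 and 3.40 RPM in the same order (0.05 ± 0.02 and -0.04 ± 0.02), small differences in opposite directions. With 2 libraries against 2, the exact two-sided permutation test cannot give a p below 0.333, which it gave in each of these comparisons except the second chromosome 7 interval in cDKO (p = 1). With the median over windows in place of the mean, the chromosome 2 ratio in G9a cKO turned from 0.05 to -0.27 and that of the second chromosome 7 interval from 0.18 to -0.10, and the chromosome 9 ratio became 0.00. The flanks of the intervals fell from 4.05 and 4.08 to 3.58 and 3.65 RPM in G9a cKO, against 3.81 and 3.98 in cDKO. Those of the first chromosome 7 interval alone held 3.82 and 3.87 RPM in controls and 3.21 and 3.46 in G9a cKO, with 3.55 and 3.69 in cDKO. Their log2 ratio in G9a cKO was -0.21, near the -0.24 of the interval, so the lower level was not particular to that interval.

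**Figure D1:**
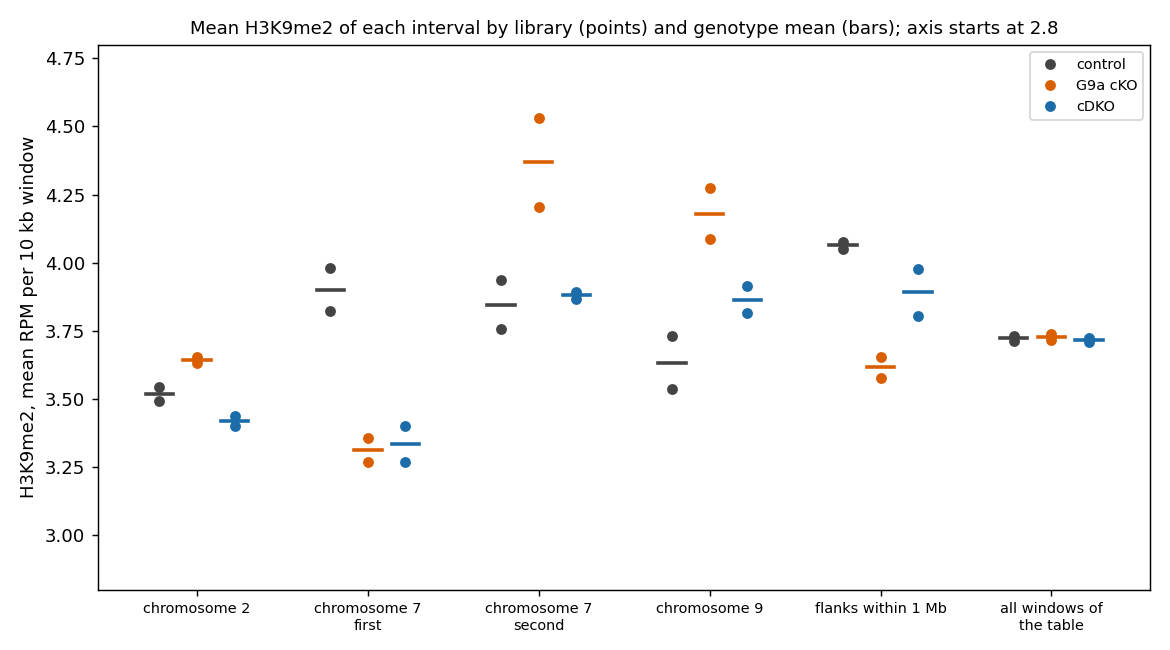
Mean H3K9me2 in RPM per 10 kb window (y axis, starting at 2.8) for each interval, for the windows within 1 Mb of the intervals and for the whole table; points are libraries and horizontal lines genotype means (n = 2). The first chromosome 7 interval is lower in both mutants (3.27 to 3.40 against 3.82 and 3.98 RPM), the second chromosome 7 and the chromosome 9 intervals are higher in G9a cKO (4.09 to 4.53 RPM), and the whole table lies at 3.71 to 3.74 RPM in each library.

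Bins of the clusters varied more in G9a cKO than in controls. The spread of member bins beyond counting error rose from 11.9% and 13.6% of the mean in controls to 27.5% and 24.9% in G9a cKO, and was 17.6% and 13.7% in cDKO. The same measure over all bins was 30.8% and 29.1% in G9a cKO, with 20.6% and 17.0% in cDKO, so the clusters were less variable than the genome in each of the 6 libraries. The highest member bin held 54.5 and 55.0 RPM in controls and 86.7 and 88.4 RPM in G9a cKO. Windows above the top 10% threshold of their own genotype numbered 142 of 1306 (10.9%) in G9a cKO and 87 (6.66%) in cDKO, against the 57 in controls; when control reads were thinned to the smallest library the control share was 5.82%.

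**Figure D2:**
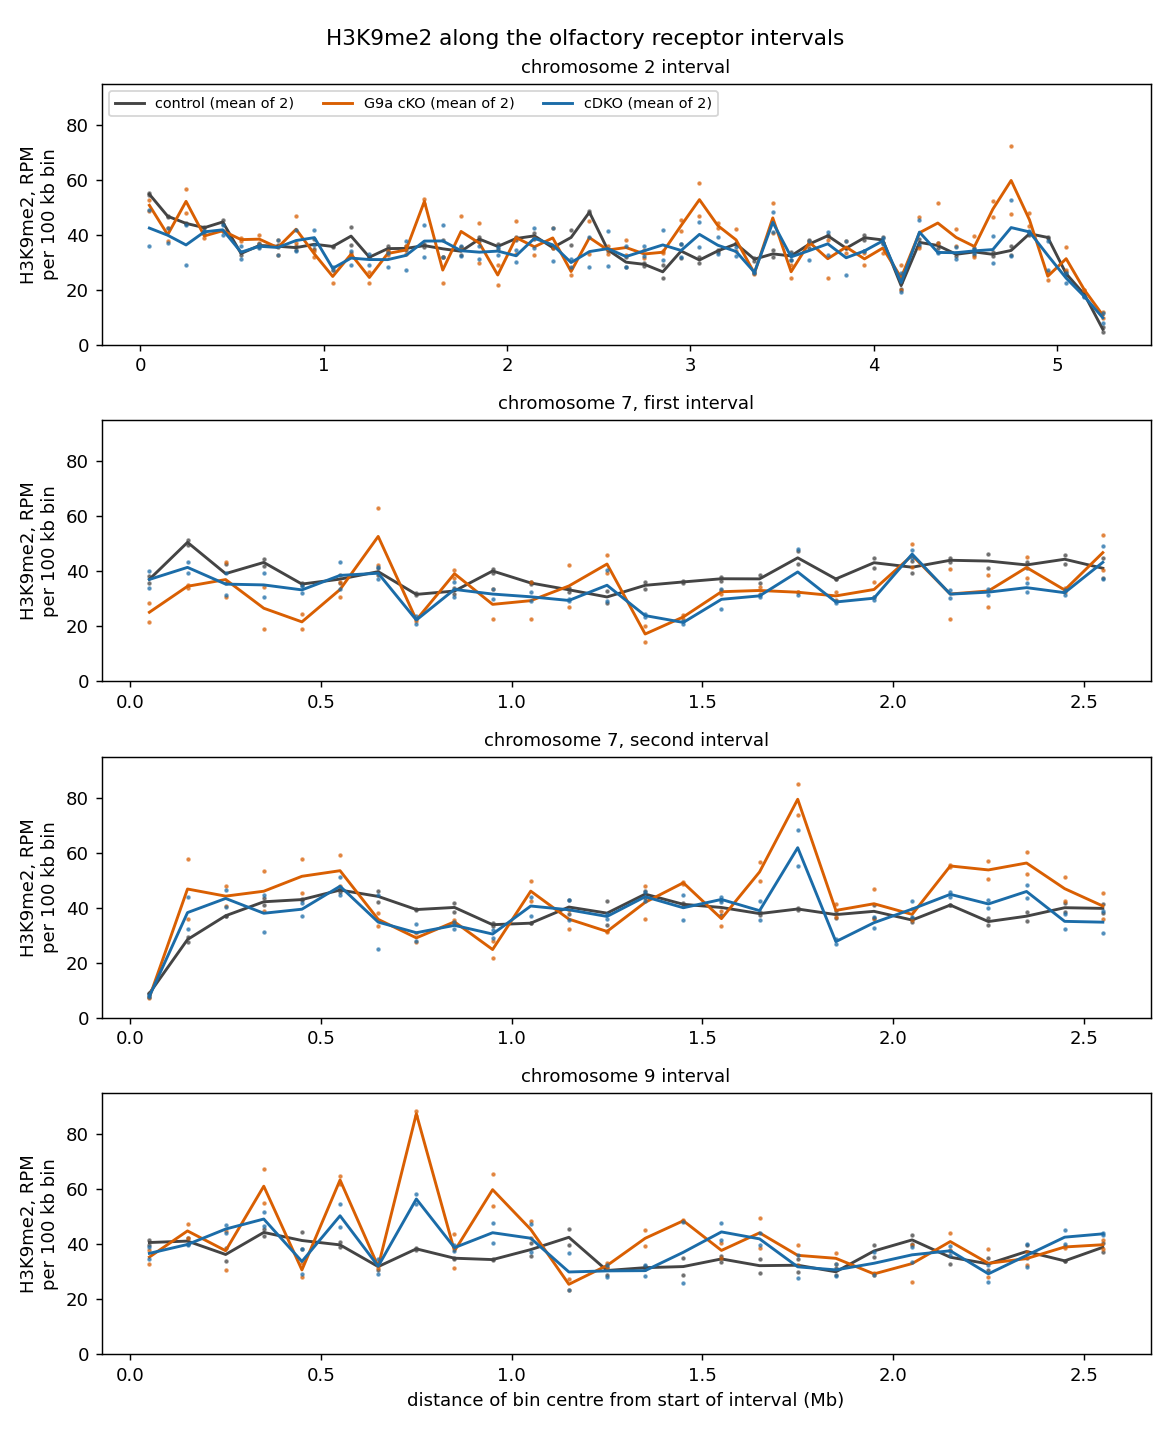
H3K9me2 in RPM per 100 kb bin (y axis) against distance from the start of each interval in Mb (x axis); lines are genotype means and points are the 2 libraries of each genotype. Controls run between about the same levels throughout except at the read-poor end bins, whereas G9a cKO shows peaks on chromosome 9 (86.7 and 88.4 RPM) and in the second chromosome 7 interval (85.1 and 73.9 RPM), with cDKO between the other genotypes at both.

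By limma on 100 kb bins, with Benjamini-Hochberg adjustment over all bins of the genome and a call at adjusted p under 0.05, G9a cKO had 26 calls among the 131 member bins (19.8%), of which 16 were gains and 10 losses (20 and 6 after centring on the median bin). The background was 29.7% of 25533 bins, 13.9% higher and 15.7% lower, so calls were fewer in the clusters than in the genome. The median log2 fold change of the member bins was 0.02, against -0.07 over all bins. Calls fell on opposite sides in different intervals: the first chromosome 7 interval had 6 lower and 0 higher (14 bins with an unadjusted p under 0.05), the second had 6 higher and 0 lower (9 such bins). Chromosome 9 had 4 higher and 1 lower, and chromosome 2 had 6 higher and 3 lower. Leaving out control replicate 1 or control replicate 2 reduced the member calls in G9a cKO to 4 and 5. The 3 bins described next kept their call in G9a cKO in each of the 9 alternatives run. In cDKO 3 of 131 member bins (2.29%) were called, 2 higher and 1 lower, against a background of 6.0% (4.4% higher and 1.6% lower), and these 3 calls were lost when any 1 of the 4 libraries was left out. Between cDKO and G9a cKO limma called 0 of 131 member bins, against a background of 0.153% of all bins. An unadjusted p under 0.05 was found at 21 member bins, among 5662 of the 25533 bins, and precision weights (voom) called 1 member bin, among 850 of all bins.

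The strongest gain was the bin chr9:38300001-38400000, which holds 5 receptor genes including Olfr25, Olfr898, Olfr250 and Olfr251. It carried 38.0 and 38.7 RPM in controls, 86.7 and 88.4 in G9a cKO, with 54.6 and 58.5 in cDKO. The 3 genotypes do not overlap there, with cDKO between the others. The log2 fold change was 1.17 ± 0.12 in G9a cKO (SE; adjusted p = 0.000739) and 0.55 in cDKO (adjusted p = 0.0333), a 2.25-fold and a 1.46-fold rise.

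The bin chr7:107900001-108000000 carries Olfr472, Olfr473, Olfr474, Olfr476 and Olfr477. It held 39.3 and 39.8 RPM in controls, 85.1 and 73.9 in G9a cKO, with 68.5 and 55.3 in cDKO. Again each mutant library exceeded both controls, and the G9a cKO libraries exceeded the cDKO libraries. Its log2 fold change was 0.99 ± 0.14 in G9a cKO (adjusted p = 0.00159) and 0.62 in cDKO (adjusted p = 0.0348). The third bin that kept its call throughout, chr9:38500001-38600000 with 5 receptor genes, rose from 34.3 and 34.6 to 65.7 and 54.1 RPM in G9a cKO (0.77 ± 0.15, adjusted p = 0.00487). It stood at 40.6 and 47.8 RPM in cDKO and was not called there (0.35, adjusted p = 0.156).

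The remaining bins among the 5 largest gains in G9a cKO lay on chromosome 2. The bin chr2:89800001-89900000, with 4 receptor genes, held 32.6 and 36.0 RPM in controls and 47.4 and 72.1 in G9a cKO (0.75, adjusted p = 0.0317), a call lost without control replicate 1 or G9a cKO replicate 2 (adjusted p = 0.0869 and 0.198). The bin chr2:90300001-90400000, with few reads, held 4.68 and 6.48 RPM in controls and 9.69 and 11.7 in G9a cKO (0.84, adjusted p = 0.0455), a call lost on leaving out any 1 of these 4 libraries.

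Called losses were most numerous in the first chromosome 7 interval, whose flanks were also lower in both mutants. The bin chr7:103700001-103800000 holds 8 receptor genes, Olfr67 among them, and adjoins the beta-globin cluster. It carried 36.2 and 33.6 RPM in controls, 19.9 and 14.4 in G9a cKO, with 24.4 and 23.4 in cDKO, both mutants below both controls (-0.998 ± 0.20 in G9a cKO, adjusted p = 0.00596; -0.53 in cDKO, adjusted p = 0.121). The call in G9a cKO was lost without control replicate 1 (adjusted p = 0.0714). The next bin, chr7:103800001-103900000, contains the beta-globin genes Hbb-bt, Hbb-bs, Hbb-bh1, Hbb-bh2 and Hbb-y and was called lower in both mutants. It held 35.6 and 36.6 RPM in controls, 24.2 and 22.5 in G9a cKO, with 22.1 and 20.7 in cDKO (-0.61 and -0.73, adjusted p = 0.0234 and 0.0369), and each call was lost without either control library.

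The other large losses in G9a cKO had smaller values in cDKO, and the mutants were not called different at them. The bin chr7:102700001-102800000, with 8 receptor genes, held 41.9 and 44.6 RPM in controls, 18.8 and 34.3 in G9a cKO, with 30.8 and 39.3 in cDKO. Its G9a cKO libraries differed widely, and without replicate 1 of them the change was -0.33 and not called. Its neighbour chr7:102800001-102900000, with 6 receptor genes, held 35.0 and 35.7, 18.8 and 24.3, and 31.9 and 34.5 RPM in the same order (-0.70, adjusted p = 0.0149 in G9a cKO; -0.09, adjusted p = 0.772 in cDKO). The bin chr9:38700001-38800000, with Vwa5a and 2 receptor genes, fell from 39.6 and 45.5 to 27.5 and 23.4 RPM in G9a cKO (-0.72, adjusted p = 0.0268). The bin chr2:90000001-90100000, with 7 receptor genes, fell from 39.3 and 38.7 to 26.4 and 23.4 RPM (-0.63, adjusted p = 0.0258). The calls of these 4 bins in G9a cKO were lost without control replicate 1 and also without control replicate 2.

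Bins of 1 Mb hold about 10 times the reads, and 5 of 13 of them were called in G9a cKO (background 54.7% of 2563), 2 of 13 in cDKO (background 41.4%) and 3 of 13 between the mutants (background 8.7%). The bin at 102 to 103 Mb of chromosome 7 held 374 and 392 RPM in controls, 273 and 323 in G9a cKO, with 377 and 376 in cDKO. Only 60 of its 100 windows lie in the interval, and in the G9a cKO libraries the bin was lower than in the controls. The difference between the mutants was 0.34 (adjusted p = 0.0363 by limma). The bins at 103 to 104 and 104 to 105 Mb were lower in cDKO (-0.25 and -0.26, adjusted p = 0.0153 and 0.00873), and that at 104 to 105 Mb also in G9a cKO (-0.21, adjusted p = 0.0149). On chromosome 9 the bin at 38 to 39 Mb held 355 and 372 RPM in controls, 465 and 448 in G9a cKO, with 382 and 395 in cDKO, and the mutants differed (-0.23, adjusted p = 0.0428). The bin at 108 to 109 Mb of chromosome 7, with 80 of its 100 windows in the interval, held 398 and 406, 449 and 484, and 392 and 407 RPM in the same order, with G9a cKO above the other genotypes (-0.22 between the mutants, adjusted p = 0.0494).

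Within a bin the gain was uneven. In the Olfr251 bin, 7 of 10 windows were above both controls in both G9a cKO libraries, and 3 of these, which adjoin at its end, were called higher: that at Olfr251 (chr9:38370001-38380000) from 3.40 and 3.82 RPM in controls to 16.7 and 18.0 in G9a cKO, with 7.54 and 5.31 in cDKO. The next, chr9:38380001-38390000, went from 2.27 and 4.13 to 11.3 and 11.7 RPM, and the last from 2.98 and 3.82 to 10.2 and 15.3 RPM. The first 3 windows of the bin, which were not called, held 5.25 and 4.86, 2.98 and 2.67, and 3.12 and 3.55 RPM in controls against 10.2 and 13.5, 5.92 and 7.21, and 9.69 and 6.31 RPM in G9a cKO. A window at Olfr898 (chr9:38350001-38360000) was also higher without a call (3.55 and 3.55 against 7.54 and 8.11 RPM), and the other 3 windows ranged from 1.80 to 7.54 RPM in G9a cKO and from 3.19 to 5.25 RPM in controls. In the Olfr472 bin the first 5 windows were above both controls in each G9a cKO library, with 15.6 and 15.3 RPM at Olfr472 and 18.3 and 10.8 at Olfr473, while 2 windows near its end held 0.902 to 5.41 RPM against 3.24 to 4.55 in controls.

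**Figure D3:**
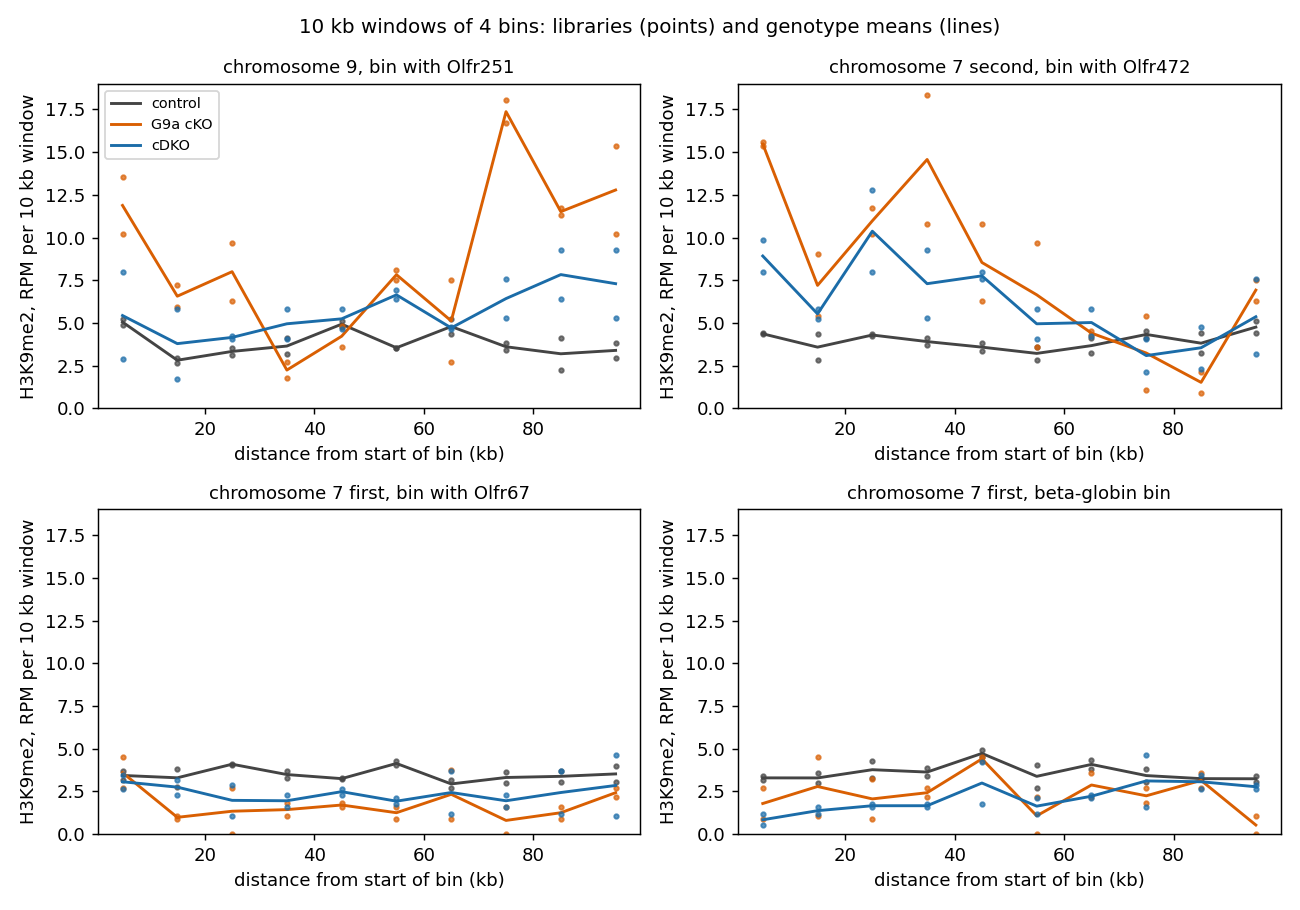
H3K9me2 in RPM per 10 kb window (y axis) along 4 bins of 100 kb (x axis, distance from the start of the bin in kb); points are libraries and lines genotype means. In the bins with Olfr251 and Olfr472 the G9a cKO values reach 18.0 and 18.3 RPM in some windows and lie within or under the control range in others, whereas in the Olfr67 and beta-globin bins most mutant values lie under the controls.

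Over 10 kb windows with a read in any library, limma called 27 of 1297 member windows in G9a cKO, 26 higher and 1 lower, against a background of 1.85% of 255057 windows (1.75% higher and 0.102% lower), so the share in the clusters was near that of the table. Of the 26, 8 held at most 1 read in any library, among them the 5 with the largest fitted change, and their values are set by library depth, so no fold is given for them. Of the other 18, 10 lay on chromosome 9 and 6 overlapped a receptor gene. The 5 largest changes among these 18 were chosen after their values were seen. They were at chr9:39890001-39900000 (1.28 and 1.46 RPM in controls, 8.08 and 7.21 in G9a cKO, adjusted p = 0.0497) and at the Olfr251 window (log2 fold change 2.27, adjusted p = 0.0355). The others were the window after it (1.91, adjusted p = 0.0438), chr9:38540001-38550000 (2.04, adjusted p = 0.0379) and chr2:88060001-88070000 (1.96, adjusted p = 0.0441). The window called lower was chr7:102500001-102510000, without a receptor gene, with 7.52 and 5.44 RPM in controls, 1.62 and 0.902 in G9a cKO, with 5.80 and 5.85 in cDKO (-2.41, adjusted p = 0.0457). In cDKO and between the mutants limma called 0 member windows, with a background of 0.0% for both comparisons. In cDKO 109 member windows had an unadjusted p under 0.05, among 22952 of the 255057 windows of the table, and 32 were called with precision weights (voom), among 8278 of the table. Between the mutants the unadjusted p was under 0.05 at 164 member windows, among 34157 of the table, and voom called 0 of them, among 35 of the table. Every named window lost its call without trend and robust variance fitting, and each lost it without G9a cKO replicate 2. Each also lost it without either cDKO library. The cDKO libraries are not in this comparison but enter the estimate of spread that all 6 libraries share. Without G9a cKO replicate 1, which leaves a single G9a cKO library, most windows called were lower, in the clusters and over the table. In the main fit most were higher, so the set of called windows differed. No named window changed direction in any alternative run. Without control replicate 1 there were 15 calls, all higher, among 2314 of the table.

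Windows with receptor genes and windows without a receptor or other coding gene held different levels in G9a cKO. The latter are called gaps here, though they need not lie between receptor genes. The 638 member windows that overlap a receptor gene held 3.61 and 3.73 RPM in controls, 3.52 and 3.43 in G9a cKO, with 3.40 and 3.46 in cDKO, slightly lower in both mutants. The 528 windows without a receptor or other coding gene held 3.52 and 3.63 RPM in controls, 4.37 and 4.27 in G9a cKO, with 3.88 and 3.60 in cDKO. The 140 windows with another coding gene only held 4.05 and 4.26, 3.61 and 3.53, and 3.58 and 3.76 RPM in the same order. Pooled over the intervals, G9a cKO was thus higher in the gaps and lower in both other classes. The receptor windows, which include windows with only a receptor pseudogene, differed between intervals. They were lower in the first chromosome 7 interval (3.82 and 4.03 RPM in controls against 3.06 and 3.12 in G9a cKO) and on chromosome 2 (3.47 and 3.48 against 3.32 and 3.33). In the second chromosome 7 interval (3.90 and 4.07 against 4.68 and 3.94) and on chromosome 9 (3.52 and 3.76 against 3.77 and 3.67) the groups overlapped, with means higher in G9a cKO. The ratio of gap to receptor windows was 0.976 and 0.972 in controls, 1.24 and 1.25 in G9a cKO, with 1.14 and 1.04 in cDKO. In each of the 4 intervals both G9a cKO ratios exceeded both control ratios, by the most on chromosome 9 (0.984 and 0.959 against 1.36 and 1.31) and by the least in the second chromosome 7 interval (0.949 and 0.939 against 1.00 and 1.17). In the rest of the genome, the ratio of all 153477 windows without a receptor or coding gene to receptor windows went down. It was 0.931 and 0.920 in controls and 0.803 and 0.830 in G9a cKO. Those 153477 windows are not confined to receptor clusters, so this is not a ratio for the gaps of other clusters. They held 3.62 and 3.65 RPM in controls and 3.69 and 3.60 in G9a cKO. The exact permutation test gave its smallest p, 0.333, for G9a cKO against control in each case.

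**Figure D4:**
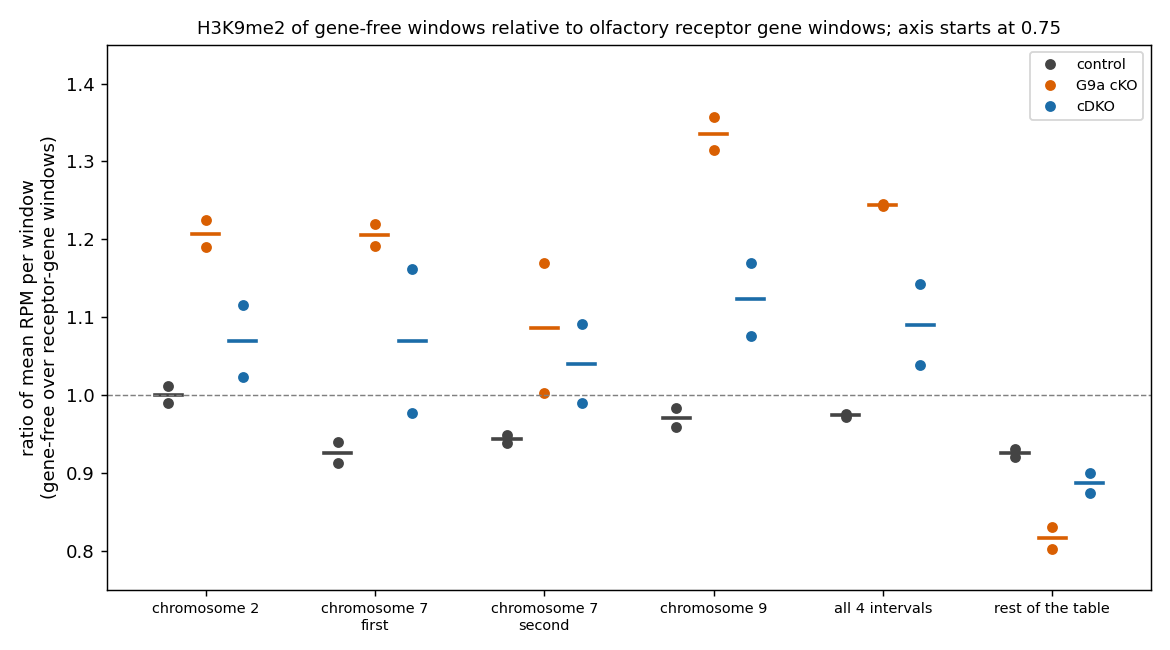
Ratio of the mean H3K9me2 of windows without a receptor or other coding gene to that of windows with a receptor gene (y axis, starting at 0.75), for each interval, for the 4 together and for the rest of the table; points are libraries and horizontal lines genotype means (n = 2). Controls lie between 0.912 and 1.01 in the intervals, and G9a cKO between 1.00 and 1.36. In the rest of the table the windows without a gene are not confined to receptor clusters. There G9a cKO is below the controls (0.803 and 0.830 against 0.931 and 0.920).

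Receptor windows outside the intervals, 875 of them, held 3.89 and 3.97 RPM in controls, 4.60 and 4.33 in G9a cKO, with 3.97 and 3.82 in cDKO, so receptor windows there were higher in both G9a cKO libraries than in both controls. The difference from the receptor windows of the intervals was not tested. Windows at Zfp genes, 1646 in number, rose from 3.68 and 3.70 to 5.04 and 4.91 RPM in G9a cKO and to 4.71 and 4.38 in cDKO, a change of 0.43 and 0.30 on the log2 scale that exceeded that of any interval. The number of receptor genes in a bin bore little relation to its change over 128 bins (Spearman rho -0.06 in G9a cKO and -0.03 in cDKO; bins of 1 library set share its depth).

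RNA at the loci listed in the clusters was scarce. Of the 631 receptor genes of the intervals, 68 are overlapped by a listed locus on either strand. RNA of the other receptor genes was not measured here. Among the 129 loci, 32 lacked reads in all 11 libraries, 43 reached a mean of 1 RPM and 12 a mean of 10 RPM. Of 38 loci that overlap a receptor gene on the same strand, 10 had no read and 6 reached 1 RPM. All receptor loci together summed to 59.2 to 82.9 RPM in the 6 control libraries, 62.3 to 77.2 RPM in G9a cKO and 66.6 and 94.3 RPM in cDKO, and the groups overlapped. Most of these reads came from Olfr975. The receptor loci other than Olfr975, which was set aside after its values were seen, summed to 13.3 to 19.2 RPM in the 6 control libraries, 23.5 to 29.2 RPM in the 3 G9a cKO libraries and 25.1 and 27.9 RPM in cDKO, that is 26 to 62 reads per library. In this second sum each mutant library was above each control library. It still includes Olfr916, which was called higher in cDKO. No sum without Olfr916 was made, so a rise shared by the receptor loci is not shown. Loci at Olfr251 and Olfr473, which lie in windows called higher for H3K9me2 in G9a cKO, had no read in any library.

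Olfr975 (locus chr9:39949837-39961284, which also covers Olfr976) was the receptor locus with the most RNA. It held 53.5, 50.3 and 41.0 RPM in GKAO controls, 39.2, 38.8 and 48.0 in G9a cKO, 54.1, 65.8 and 52.7 in GKAQ controls and 41.6 and 66.4 in cDKO. The groups overlap in both comparisons, and it was not called (log2 fold change -0.20 and -0.12, adjusted p = 0.465 and 0.697). Olfr916 (locus chr9:38644753-38659173, also over Olfr915) held 0.629, 1.25 and 3.45 RPM in GKAQ controls and 8.54 and 7.71 in cDKO, both above the controls (2.54 ± 0.60, SE, adjusted p = 0.00105; 28 against 11 reads). Among libraries with the GKAO prefix it held 3.43, 2.62 and 6.45 RPM in controls and 9.60, 4.92 and 7.53 in G9a cKO, which overlap (0.87, adjusted p = 0.242). The call in cDKO was lost on the log2(RPM + 1) scale (adjusted p = 0.0914).

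By limma over all loci, 11 of 129 (8.53%) were called in cDKO, 8 higher and 3 lower, against a background of 6.34% (4.32% higher and 2.02% lower), a share near the background. In G9a cKO 1 of 129 was called (background 1.79%), and the effects of the mutants differed at 3 of 129 (background 1.08%), a count that ran from 1 to 61 when single libraries were left out. The 61 came without GKAQ control replicate 1, where 14705 of all 38540 loci were called, 14162 of them higher. Of the 8 loci called higher in cDKO, 5 lay in the first chromosome 7 interval, 4 of them at Usp17l genes, a tandem family of cytokine-inducible deubiquitinating enzymes. Because the copies are near identical, reads may have been shared between them, and whether counting used the strand is not given in the sources used here.

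The Usp17lc locus (listed as Usp17l5, chr7:103416696-103419819) had 0 reads in all 6 controls, 3, 4 and 1 reads in G9a cKO and 48 and 25 reads in cDKO, or 27.3 and 14.8 RPM. Against a floor of 3 reads over the GKAQ controls together, it was at least 42.5-fold higher in cDKO (adjusted p = 3.67e-09), and the cDKO effect exceeded the G9a cKO effect (difference 4.44, adjusted p = 0.00846). A locus antisense to Usp17lb (listed as Dub1a, chr7:104833795-104847084) had 0, 0 and 1 reads in GKAQ controls and 57 and 44 in cDKO, a ratio of 177 (95% exact interval 31.0 to 7043, counting error only). It had 0 reads in GKAO controls and 6, 5 and 1 in G9a cKO, and its effects differed as well (4.48, adjusted p = 0.00707). Both differences were lost without G9a cKO replicate 3 or cDKO replicate 1 (adjusted p from 0.0533 to 0.0911). That at the antisense locus was also lost on the log2(RPM + 1) scale (adjusted p = 0.0871) and with voom (adjusted p = 0.0518), while the calls in cDKO held in each alternative run. The Usp17le locus (listed as Dub3, chr7:104767609-104784473) had 0, 1 and 1 reads in GKAQ controls and 16 and 11 in cDKO, a ratio of 23.6 (5.93 to 205). It had 0 reads in GKAO controls and 5, 5 and 6 in G9a cKO, at least 4.26-fold higher against the same kind of floor and not called (adjusted p = 0.0852). The Usp17ld locus (listed as Dub2a, chr7:103249737-103252505) had 2 reads in each cDKO library and 0 in the other 9, a call resting on 4 reads (adjusted p = 0.0354) and lost without GKAQ control replicate 2 or 3.

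H3K9me2 over these loci is known from few reads. The single window over the Usp17lc locus held 4.68 and 3.66 RPM in controls, 4.31 and 1.80 in G9a cKO, with 1.74 and 3.19 in cDKO, both cDKO libraries under both controls. Over the Usp17lb antisense locus (2 windows) it was 4.89 and 5.15 RPM in controls, 3.50 and 3.16 in G9a cKO, with 4.06 and 2.92 in cDKO, each mutant library lower. Over the Usp17le locus (3 windows) it was 5.11 and 4.60, 2.69 and 6.31, and 2.32 and 2.66 RPM, lower in cDKO and overlapping in G9a cKO. None of these windows was called.

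The other loci called higher in cDKO were Trim6, Tbrg1, Olfr916 and Pramel7. Trim6, an E3 ubiquitin ligase gene of the first chromosome 7 interval, held 1.26, 5.42 and 5.91 RPM in GKAQ controls and 25.1 and 20.2 in cDKO (2.71 ± 0.52, adjusted p = 2.12e-05), with 5.48, 4.19 and 2.34 RPM in GKAO controls and 12.9, 2.19 and 5.18 in G9a cKO (0.48, adjusted p = 0.474). Its call was lost on the log2(RPM + 1) scale (adjusted p = 0.13). Tbrg1, which encodes transforming growth factor beta regulator 1, rose from 31.4, 35.4 and 28.6 to 72.9 and 52.2 RPM in cDKO (0.96 ± 0.21, adjusted p = 0.000244) and lost its call without cDKO replicate 1 or with the 6 controls pooled. It held 49.4, 62.3 and 53.3 RPM in GKAO controls, above the GKAQ controls, and 59.3, 74.3 and 80.5 RPM in G9a cKO (0.37, adjusted p = 0.23). Pramel7, on chromosome 2, had 4 and 2 reads in cDKO and 0 in the other 9 libraries (adjusted p = 0.0106), so its call rests on 6 reads and was lost without GKAQ control replicate 2 or 3. The window over the Pramel7 locus held 5.25 and 4.65 RPM of H3K9me2 in controls, 1.08 and 2.70 in G9a cKO, with 0.58 and 2.66 in cDKO, lower in each mutant library.

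The 3 loci called lower in cDKO lay in the second chromosome 7 interval. Ppfibp2, the gene of liprin beta 2, held 326, 316 and 318 RPM in GKAQ controls and 224 and 218 in cDKO (-0.53 ± 0.11, adjusted p = 6.41e-05). Among libraries with the GKAO prefix it held 271, 284 and 292 RPM in controls and 227, 244 and 227 in G9a cKO, also without overlap but not called (-0.28, adjusted p = 0.131). A locus that overlaps the end of Ppfibp2 on the other strand fell from 44.6, 37.9 and 46.8 to 18.2 and 23.7 RPM (-1.05, adjusted p = 0.00265), a call lost without cDKO replicate 1 (adjusted p = 0.113). A locus with no gene name (chr7:106919937-106924013) had 10, 13 and 19 reads in GKAQ controls and 3 and 1 in cDKO, a ratio of 0.167 (95% exact interval 0.0434 to 0.459), and 16, 10 and 15 reads in GKAO controls against 22, 15 and 14 in G9a cKO. Its effects differed between the mutants (-2.75, adjusted p = 0.0199), a difference lost in 5 fits that left out a library (adjusted p up to 0.19).

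The locus called in G9a cKO runs antisense to Olfr667 (chr7:104908758-104923708). It held 67.9, 64.9 and 68.0 RPM in GKAO controls and 106, 94.5 and 86.2 in G9a cKO, all above the controls (0.51 ± 0.15, adjusted p = 0.0391), and was lost in 5 of the 6 fits that left out a library of this comparison. Among libraries with the GKAQ prefix it held 96.2, 107 and 90.7 RPM in controls and 108 and 127 in cDKO (0.26, adjusted p = 0.543), so the GKAQ controls stood at the level of G9a cKO.

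**Figure D5:**
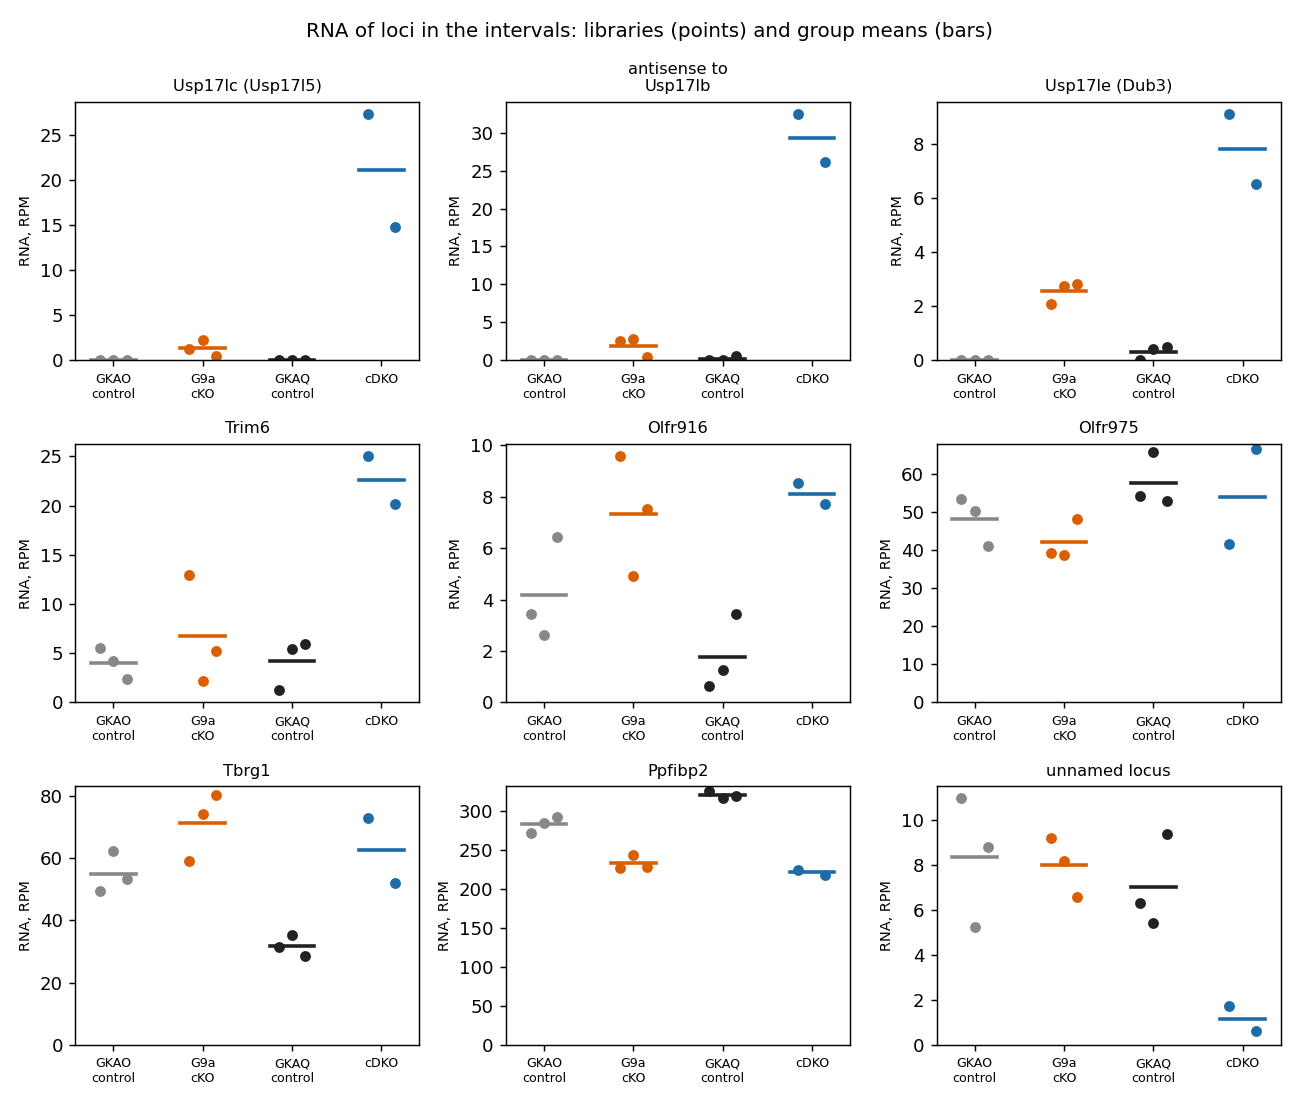
RNA in RPM (y axes, from 0) at 9 loci in the intervals for the GKAO controls, G9a cKO, GKAQ controls and cDKO; points are libraries and horizontal lines group means (n = 3, 3, 3 and 2). The Usp17lc and Usp17lb antisense loci are at or near 0 in the 6 controls and at 14.8 to 32.5 RPM in cDKO, whereas Olfr975 overlaps between groups.

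Among the expressed genes of the intervals, Nlrp14, an oocyte gene of the NLRP family, held by far the most RNA, with 3671, 3584 and 3394 RPM in GKAO controls, 3480, 3399 and 3325 in G9a cKO, 2190, 2374 and 2417 in GKAQ controls and 2471 and 2489 in cDKO. It was not called in either mutant (-0.06 and 0.09, adjusted p = 0.244 and 0.219). Rrm1, Trim68, Ptprj, Spa17 and Siae, which each had a mean of 10 RPM or more, were not called either (adjusted p from 0.23 to 0.94 in G9a cKO and from 0.508 to 0.891 in cDKO). Genes for receptor choice and odorant signalling were also examined. Of 12 matched genes of 17 listed, among them Lhx2, Ldb1 and Adcy3, 0 were called by limma in either mutant, with 0 and 1 at an unadjusted p under 0.05. Of 10 matched genes for H3K9 methylation and its readers, 1 was called higher in G9a cKO, Cbx3, which encodes the HP1 protein HP1 gamma. It held 0, 1.05 and 1.17 RPM in GKAO controls (0, 2 and 2 reads) against 4.17, 6.01 and 2.35 (adjusted p = 0.0225 by limma). The GKAQ controls held 3.77, 5.83 and 4.93 RPM, so they stood at the level of G9a cKO. In cDKO 1 rose, the H3K9 demethylase gene Kdm3a (15.1, 12.1 and 11.3 RPM in controls against 35.9 and 33.8, adjusted p = 0.000865), and Ehmt1 fell.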

How the data were processed

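H3K9me2 in 6 libraries and RNA in 11 were taken from the deposited tables, which hold log2 values per library, computed by the authors; the unit was read from the values. Within each library they are log2 of whole multiples of what 1 read is worth in RPM (reads scaled to the library total), with 0.9 read given to features without reads, and 100% of the values gave whole read numbers within 0.05 read. Per the submitters' processing notes, the study used Trim Galore, Bowtie2, HISAT2 2.1.0, Bismark 0.19.0 and build GRCm38; which tool made which table, filters and the handling of reads with several alignments are not given in the sources used here. In the H3K9me2 table, 4 further columns match no sample and were not used. Input, IgG and bisulphite libraries were not analysed here.

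Windows of 10 kb with a read in any library, 100 kb bins (log2 of summed RPM plus 1, at least 5 windows with a read) and RNA loci were fitted over the whole tables with limma 3.58.1 (R 4.3.3; trend, robust), 1 mean per genotype, and adjusted by Benjamini-Hochberg over all features tested; code was tested on simulated data. P-values are two-sided. Promoters and gene positions are from RefSeq GRCm38.p6. RNA loci carry a symbol where the gene lies on the same strand; older names were matched through Ensembl identifiers. Named features are the 5 largest called changes per contrast and direction among windows and bins, the 3 highest and 3 lowest control windows, called RNA loci and expressed genes. The members and lists were chosen with earlier results of these data known, and the split into receptor and gap windows after their values were seen. Alternatives were filters, pseudocounts, scaling, variance models, bin size, thinning, pooled controls, leaving out each library and, added after seeing the data, a block on the number in the RNA titles. Python 3.11.15, pandas 2.3.3 and matplotlib 3.10.9 made summaries and figures.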

Additional observations from a re-analysis of the deposited data

Results flagged for a closer look

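The RNA effects of the mutants differed by a test of the difference itself (limma, Benjamini-Hochberg) at 3 loci. The difference, cDKO minus G9a cKO on the log2 scale, was 4.44 at the Usp17lc locus, 4.48 at the locus antisense to Usp17lb and -2.75 at the unnamed locus of the second chromosome 7 interval. On the log2(RPM + 1) scale and with voom the second of these had adjusted p = 0.0871 and 0.0518, and the third 0.265 and 0.154. For H3K9me2, 3 of 13 bins of 1 Mb differed between cDKO and G9a cKO by the same kind of test: 0.34 in the bin from 102 Mb of chromosome 7, -0.22 in that from 108 Mb of chromosome 7 and -0.23 in that from 38 Mb of chromosome 9. Both mutants were set against the same 2 control libraries. The chromosome 2 interval stood above the controls in both G9a cKO libraries (log2 ratio 0.0501) and below them in both cDKO libraries (-0.0420), and this difference was not tested.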

How the results depend on the processing

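Member windows of 10 kb called in G9a cKO numbered 27, and 8 among receptor windows alone, 88 with no filter, 14 at a mean of at least 1 RPM, 2 on the log2(RPM + 1) scale, 41 after centring on the median bin, 173 with precision weights (voom), 0 without trend and robust fitting, 3 after thinning to the smallest library and 0 to 57 when single libraries were left out (21 higher and 36 lower in the fit with 57). In cDKO the count of 0 became 28 with no filter, 32 with voom and 0 to 10 with libraries left out. Member bins called in G9a cKO numbered 26, and 16 with no filter, 41 with voom, 5 as 1 Mb bins and 4 to 30 with libraries left out; centring on the median bin gave 20 higher and 6 lower in place of 16 and 10. In cDKO the 3 bins became 0 with no filter, 13 with voom and 0 in each fit without a library. Between the mutants 0 bins became 1 after centring, 1 with voom, 3 as 1 Mb bins and 0 to 1 with libraries left out. RNA calls in G9a cKO went from 1 to 0 on the log2(RPM + 1) scale, 0 after centring, 2 with voom, 4 with pooled controls and 0 to 1 with libraries left out; in cDKO they ranged from 9 to 12, and differences from 1 to 61, with libraries left out (61 where 14705 of all loci were called). Over all features, 4730 of 255057 windows called in G9a cKO became 32053 of 272158 with no filter, 564 on the log2(RPM + 1) scale and 29657 with voom. Centring gave 6536, thinning 898 and the 1 RPM filter 1681. In cDKO 0 became 20532 with no filter and 8278 with voom. The 7571 of 25533 bins called in G9a cKO became 5037 with no filter and 10026 with voom, and the 1532 in cDKO became 0 and 5892. The 689 RNA loci in G9a cKO became 34, 678, 434 and 1197 in the order above. Interval log2 ratios after division by the median bin were 0.13 (G9a cKO) and -0.0090 (cDKO) on chromosome 2. They were -0.15 (G9a cKO) in the first chromosome 7 interval and 0.28 (G9a cKO) on chromosome 9. As medians over windows they were -0.27 and -0.10 on chromosome 2, -0.53 and -0.36 in the first chromosome 7 interval, -0.10 and -0.14 in the second, and 0.0031 and -0.032 on chromosome 9, G9a cKO given before cDKO. Over receptor windows alone they were -0.063 and -0.070 on chromosome 2, -0.34 in G9a cKO in the first chromosome 7 interval, -0.082 in cDKO in the second, and 0.033 and 0.012 on chromosome 9. The control share among the richest windows, 4.36%, was 2.30% for the top 5%, 5.82% after thinning and 3.60% to 4.67% with a library left out. The cause of these changes was not tested. RNA titles of GKAO controls and G9a cKO share the numbers GKAO109 and GKAO115, whose meaning the labels do not give. A fit with that number as a replicate block, chosen after seeing the data, called 1 member locus in G9a cKO and 3 for the difference of the effects, with 709 and 457 calls over all loci in place of 689 and 417. Deviations from the group means over 9091 loci correlated from 0.0113 to 0.113 in the 4 pairs of libraries that share a number. In the 5 others they correlated from -0.122 to 0.00274. Each pair that shares a number thus lay above each other pair, though the correlations were small. The main fit holds no term for the number. The cDKO titles share 1 number with their controls, and the H3K9me2 columns none, so no such fit was made there. The depth of the mutant H3K9me2 libraries limits single windows most.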
